A study of Homo sapiens with 6 samples.

Results

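The genes described here are 10 genes of iron storage, iron uptake, iron export and heme breakdown, chosen by gene symbol from the 40205 genes counted by RNA-seq. They are FTL and FTH1, the ferritin light and heavy chains, TFRC, the receptor for transferrin, and SLC11A2 and SLC40A1, which carry iron across membranes. The others are ACO1 and IREB2, the iron regulatory proteins, and BLVRA, BLVRB and HMOX2 of heme breakdown. All 10 symbols were found, and all but SLC40A1 had the reads needed for a test (9 of 10). Control-1, Control-2 and Control-3 were the 3 control samples, and a further 3 samples, named CLs-1 through CLs-3, were kept with CLs over 24 h, all labelled as HepG2, a human cell line derived from a liver cancer. CLs are cationic liposomes, here made of the cationic lipid DOTAP, cholesterol and a pegylated lipid, and the labels give the dose as 120 μM, while other text of the study gives it by weight per volume. The comparison asks which transcripts differed after exposure to a toxic dose of this carrier. Values of 3 samples are given in the order of their numbers. SE is the standard error, here of a log2 fold change. The labels do not say whether replicates came from separate experiments, so p-values measure only the spread between these samples, which may be technical.

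Iron enters most cells bound to transferrin, which is taken up by the transferrin receptor TFRC, and SLC11A2 moves the iron out of the endosome. What is not used is stored in ferritin, a shell of FTH1 and FTL chains, or leaves the cell through ferroportin, SLC40A1. Heme is opened by the heme oxygenases HMOX1 and HMOX2, which release its iron and form biliverdin. The biliverdin reductase BLVRA reduces this biliverdin to bilirubin, and BLVRB is the other gene named as a biliverdin reductase. When iron is scarce, ACO1 and IREB2 bind a hairpin called the iron-responsive element (IRE), block translation where it lies in the 5′ UTR and protect the transcript from decay where it lies in the 3′ UTR. Through the IRE, the transcript level of TFRC and the translation of the ferritin chains are among the steps controlled.

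The IREs are shown because their place in a transcript marks where that control acts. They were searched on the sense strand of 1 principal transcript per gene (GENCODE 29, GRCh38) as a C, 5 bases, the loop CAGTGN and 5 bases that pair with the first 5, and the capitals mark the loop. Each ferritin transcript held 1 match in its 5′ UTR, FTH1 at chr11:61967574-61967602 on the minus strand and FTL at chr19:48965335-48965363 on the plus strand, and these sites differed in 3 of 29 bases. SLC40A1 held 1 match in its 5′ UTR, at chr2:189580661-189580689 on the minus strand. TFRC held 4 in its 3′ UTR on the minus strand, at chr3:196050979-196051007, chr3:196050575-196050603, chr3:196050510-196050538 and chr3:196050463-196050491 for sites 1 to 4, which shared 16 of 29 bases.
FTH1: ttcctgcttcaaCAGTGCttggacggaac
FTL: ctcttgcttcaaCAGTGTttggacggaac
SLC40A1: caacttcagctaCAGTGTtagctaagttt
TFRC, site 1: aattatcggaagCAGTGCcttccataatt
TFRC, site 2: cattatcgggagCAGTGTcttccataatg
TFRC, site 3: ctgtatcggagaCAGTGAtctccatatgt
TFRC, site 4: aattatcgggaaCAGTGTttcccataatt
A match of this kind was present in the 5′ UTR of 0.107% and in the 3′ UTR of 0.528% of 19684 genes. The other 6 genes held none in the transcript searched. An IRE with another loop or with unpaired bases in this stem would be missed, so they may still hold one.

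The libraries held between 11418527 and 13998946 counts, the number of reads on genes. The liver markers that define the labelled cell line were sparse. Of 20 hepatocyte markers, 1, FOXA1, had enough reads to be tested, ALB had 0 counts in 5 libraries and 8 in CLs-1, and TTR and APOH had 0 counts in all 6. The 20 markers summed to 260 counts in CLs-1, where 12 were over 3 counts, among them APOA1 at 51 and SERPINA1 at 38, against sums of 68 to 105 in the other libraries. FOXA1 alone had 60 to 84 counts per library, which was most of the sum in each library but CLs-1. Of 10 stroma markers, 4 were tested and 6 were not, and the list summed to between 20720 and 28400 counts per library. VIM, at 10014 to 14821 counts, and COL3A1, at 7456 to 11358, made up most of it. The part of these markers in the results, and whether the cells match their label, was not tested. Of the liver genes of iron and heme transport, TFR2, the transferrin receptor of liver, was read in every library, at 194 to 261 counts. HP (haptoglobin) and TMPRSS6 were at 0 counts in every library, TF (transferrin), HAMP (hepcidin) and HFE2 (hemojuvelin) at 2 counts or fewer and HPX (hemopexin) at 4 or fewer, which is at or near the floor of 3 counts. CP (ceruloplasmin) had 15 counts in CLs-1 and 0 elsewhere. CLs-1 and Control-3 stood apart from the other libraries of their groups, with a Pearson correlation of log2 CPM of at most 0.976 and 0.982 to them, against 0.988 between Control-1 and Control-2 and 0.986 between CLs-2 and CLs-3. Of 12 erythroid markers, 3 (HBA1, HBA2 and HBB) were over 3 counts in CLs-1, where the list summed to 481 counts, against 0 to 5 in the other libraries.

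By edgeR's quasi-likelihood test, none of the 9 tested genes passed the criteria. These were a Benjamini-Hochberg adjusted p under 0.05 together with a fold change either over 1.5 or less than 0.67. At these criteria 0.0864% of all 15047 tested genes were called, 0.0133% higher and 0.0731% lower. DESeq2's Wald test called 0 of the 9 as well, and 107 of the 15047. At an unadjusted p under 0.05 there was 1 of the 9, FTL, against 2.19% of all tested genes in this direction and 3.62% in the other. No gene of the 9 had groups that did not overlap, against 11.5% of all tested genes, 5.34% higher and 6.18% lower. The median log2 fold change of the 9 was 0.07 and 7 were above 0. Over all tested genes the median was 0.01 and 7832 of 15047 were above 0.

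**Figure D1:**
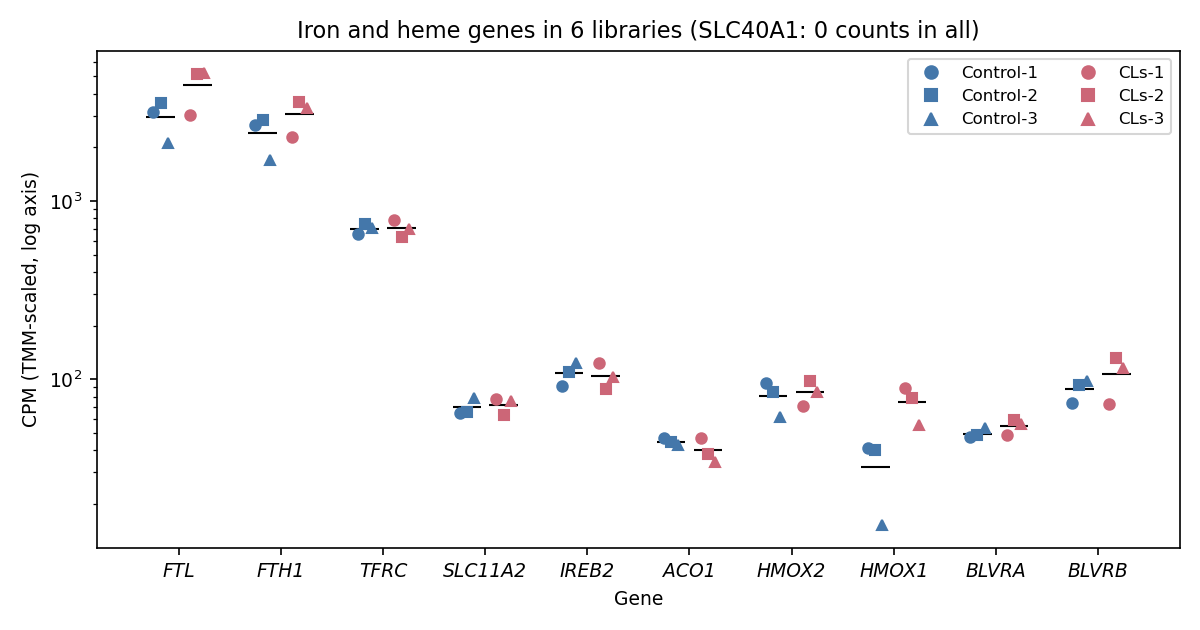
CPM (counts per 1e+06 of the TMM-scaled total, log axis) of 9 of the 10 genes and of HMOX1 in each library, with a line at the group mean; SLC40A1 had 0 counts in all libraries. In FTL and FTH1, Control-3 is the lowest point and CLs-2 and CLs-3 are the highest, and in TFRC all points lie between 626.1 and 787.3 CPM.

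FTL was the most abundant of the 10 genes. Its level was 3156, 3564 and 2119.7 CPM in Control-1 to Control-3, and 3022, 5169.7 and 5202 CPM in CLs-1 to CLs-3. CLs-2 and CLs-3 were above every control sample, while CLs-1 lay below Control-1 and Control-2, so the groups overlapped. The mean was 2947 ± 744.6 CPM (SD, n = 3) in control samples and 4465 ± 1249.5 CPM (SD, n = 3) in CLs samples. The log2 change (fold change on the log2 scale) was 0.60 (SE 0.25, adjusted p = 0.769 by edgeR's quasi-likelihood test), with a 95% interval from 0.06 to 1.14. Both libraries that stood apart weighed on this value. Without Control-3 it was 0.41 and without CLs-1 0.82, with adjusted p-values of 0.915 and 0.32 from the same test. Without both, a choice made after the values were seen, FTL passed the criteria at a log2 fold change of 0.63 (SE 0.11, adjusted p = 0.0442). Both libraries held the lowest FTL value of their group, so leaving them out narrows the spread that the test uses. That fit called 102 of 15114 tested genes, against 13 of 15047 with all samples. Macrophages are rich in ferritin, and the 12 macrophage markers summed to 14.2 to 18.3 CPM in control and 20.8 to 24.5 CPM in CLs samples, most of it from CD68. The defining CD163 and MRC1 had 0 counts in all libraries, and 2 of the 12 were tested, neither of which passed. Their part in the ferritin values was not tested.

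FTH1, the chain that oxidises iron as it enters the shell, was at 2673, 2831 and 1696 CPM in Control-1 to Control-3. In CLs samples it was at 2282, 3602 and 3330.3 CPM in CLs-1 to CLs-3. The order of the libraries was like that of FTL, with Control-3 lowest and CLs-1 below Control-1 and Control-2. The log2 change was 0.36 (SE 0.23, adjusted p = 0.951, 95% interval from -0.14 to 0.86). It was 0.16 without Control-3 and 0.53 without CLs-1, and neither passed.

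**Figure D2:**
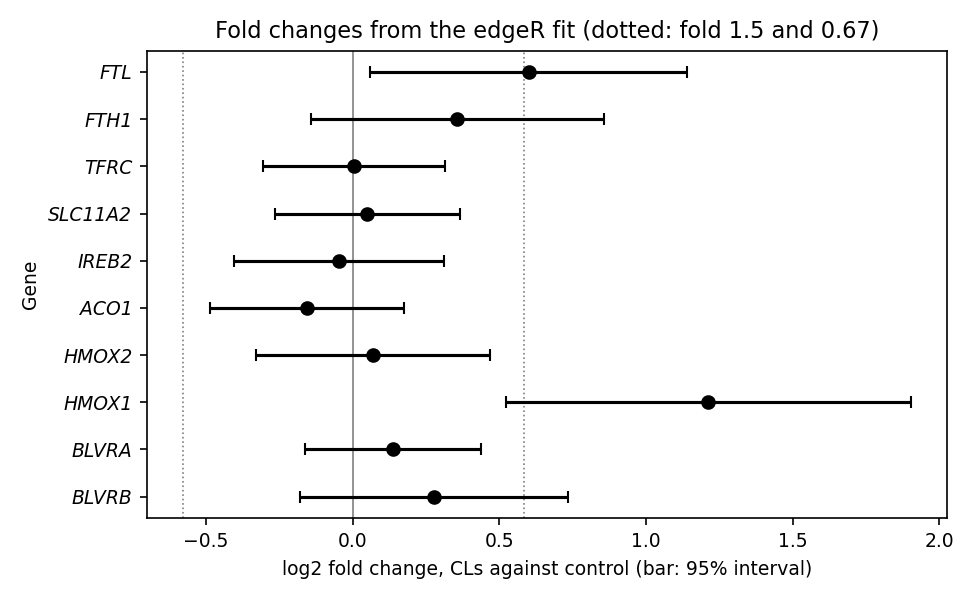
Log2 fold change between CLs-treated and control samples for 9 of the 10 genes and HMOX1, with 95% intervals from the edgeR fit and dotted lines at folds of 1.5 and 0.67. The intervals of FTL and HMOX1 lie above 0, and those of TFRC, SLC11A2, IREB2, ACO1, HMOX2 and BLVRA lie inside the dotted lines.

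The light chain was read more often than the heavy chain in every library, and the gap was wider after exposure. The FTH1 to FTL ratio of counts was 0.847, 0.794 and 0.8 in Control-1 to Control-3, and 0.755, 0.697 and 0.64 in CLs-1 to CLs-3. Every CLs-treated sample was below every control sample. This ratio does not depend on the scaling of the libraries. The log2 ratio was -0.30 ± 0.05 (SD, n = 3) and -0.52 ± 0.12 (SD, n = 3), a difference of -0.23 with an exact two-sided permutation p = 0.1, the smallest that 3 against 3 samples allow. Adjusted over the 5 ratios examined, it was 0.25. The difference lay between -0.28 and -0.17 when each sample was left out. Its sign could not change there, because the groups did not overlap. With the reads of ferritin pseudogenes added, the difference was -0.23, but the gap between the chains was smaller in every library. FTH1 then had 45120, 48074 and 30103 reads in Control-1 to Control-3, against 46554, 52765 and 30519 for FTL. In CLs-1 to CLs-3 there were 51457, 61276 and 55427 against 57302, 75727 and 74211.

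Ferritin has many processed pseudogenes, and reads were also counted on their symbols. Of 24 FTH1P symbols in the file 16 had at least 10 counts in a library, and of 19 FTLP symbols 3 did, namely FTLP2, FTLP3 and FTLP5. FTLP3 alone held 5667 to 15530 counts, and FTH1P7, the highest of the heavy chain, 3545 to 6444. Of the reads on FTH1 and its pseudogene symbols together, the pseudogenes held 31.4% to 35.9%. For FTL they held 19.0% to 23.8%, and both shares were highest in CLs-1. How reads that match several places were treated is not given in the sources used here, so the split between parent and copy is uncertain. All 16 tested FTH1P symbols had a log2 fold change above 0, between 0.09 and 0.87, as did both tested FTLP symbols at 0.52 and 0.61, and none passed the criteria. Their reads may come from the parent transcripts, which was not tested, so they are not separate observations. With the pseudogene reads added to their parents, the log2 fold change was 0.36 (SE 0.22) for FTH1 and 0.60 (SE 0.25) for FTL, with adjusted p-values of 0.942 and 0.769 from edgeR's quasi-likelihood test.

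**Figure D3:**
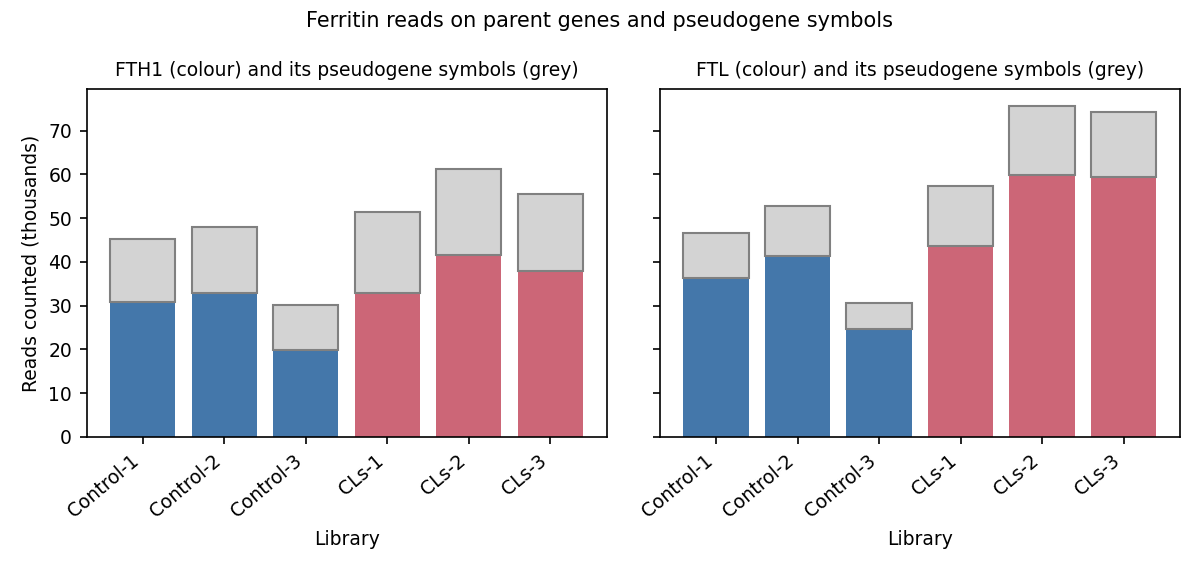
Reads counted in each library on FTH1 and FTL (coloured, blue for control and red for CLs-treated) and on their pseudogene symbols (grey, stacked above). Control-3 has the smallest bar in both panels, with 30103 and 30519 reads in all, and CLs-2 the largest, with 61276 and 75727.

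TFRC, the receptor for iron-laden transferrin, had nearly equal means in both groups. It was at 653.0, 742.7 and 704.8 CPM in Control-1 to Control-3 and at 787.3, 626.1 and 695.8 CPM in CLs-1 to CLs-3. The CLs-treated samples lay on both sides of the controls. The group means were 700.2 ± 45.0 and 703.1 ± 80.8 CPM (SD, n = 3 in each group). The log2 change was 0.01 (SE 0.14, adjusted p = 0.999), and its 95% interval from -0.30 to 0.32 corresponds to folds between 0.81 and 1.25. The sign was not stable, with -0.084 without CLs-1. Against the heavy chain, the log2 ratio of TFRC to FTH1 was -1.74 ± 0.42 (SD, n = 3) in control samples and -2.11 ± 0.51 (SD, n = 3) in CLs samples. These groups overlapped (exact two-sided permutation p = 0.4, 0.6 adjusted over the 5 ratios).

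SLC11A2, the endosomal iron transporter also known as DMT1, was at 64.6, 65.4 and 78.5 CPM in Control-1 to Control-3. It was at 77.3, 62.8 and 75.6 CPM in CLs-1 to CLs-3, within a range close to that of the controls. The log2 change was 0.05 (SE 0.14, 95% interval from -0.26 to 0.36, adjusted p = 0.998). No read was counted on SLC40A1, the exporter ferroportin, in any of the 6 libraries. A count of 0 allows up to 3 counts, or 0.214 to 0.263 CPM at these depths, for counting error only, so no fold change can be given for it.

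Of the iron regulatory proteins, ACO1 is the cytosolic aconitase that binds IREs when it has lost its iron-sulfur cluster, and IREB2 is removed by degradation when iron is ample. ACO1 was at 46.8, 44.2 and 42.5 CPM in Control-1 to Control-3, and at 47.0, 38.3 and 34.5 CPM in CLs-1 to CLs-3. CLs-2 and CLs-3 were below all controls, while CLs-1 was above them. Its log2 change was -0.16 (SE 0.15, 95% interval from -0.49 to 0.18, adjusted p = 0.998), -0.29 without CLs-1, -0.061 without CLs-3 and -0.32 with CLs-1 and Control-3 both left out. IREB2 was at 91.8, 109.6 and 123.7 CPM in the controls and at 123.0, 88.2 and 103.6 CPM in CLs-1 to CLs-3. The groups shared nearly the whole range, and the log2 fold change was -0.05 (SE 0.16, 95% interval from -0.40 to 0.31, adjusted p = 0.998). The log2 ratio of ACO1 to IREB2 differed by -0.12 between the groups (exact two-sided permutation p = 0.6, 0.6 adjusted).

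HMOX2, the constitutive heme oxygenase, was at 95.7, 84.4 and 61.3 CPM in Control-1 to Control-3 and at 71.0, 97.2 and 85.3 CPM in CLs-1 to CLs-3. The groups overlapped, and the log2 fold change was 0.07 (SE 0.18, 95% interval from -0.33 to 0.47, adjusted p = 0.998). Without Control-3 it was -0.092. In GENCODE 29 the exons of HMOX2 overlap those of NMRAL1 on the other strand, which had 928 to 1154 counts, and the strand setting of the counting is not given, so reads of this pair may be mixed. The exons of FTH1 overlap those of BEST1 on the other strand, which had 0 to 7 counts. The effect of that overlap on the FTH1 counts was not tested.

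HMOX1, the inducible form of the enzyme, served as the partner of HMOX2. The HMOX1 to HMOX2 ratio of counts was 0.433, 0.473 and 0.248 in Control-1 to Control-3, and 1.26, 0.812 and 0.651 in CLs-1 to CLs-3. The lowest CLs-treated sample was above the highest control sample, and in CLs-1 the inducible form had the more reads. The log2 ratio was -1.43 ± 0.51 (SD, n = 3) in control samples and -0.20 ± 0.48 (SD, n = 3) in CLs samples, a difference of 1.24 (exact two-sided permutation p = 0.1, 0.25 adjusted). Without CLs-1 and Control-3 the difference was 0.68. HMOX1 alone had a log2 change of 1.21 (SE 0.31, adjusted p = 0.288). It passed the criteria in DESeq2's Wald test (adjusted p = 0.00891), which called 107 of 15047 tested genes. HMOX1 also passed in edgeR's test over every gene with a read (adjusted p = 0.000543), which called 171 of 25432. Without CLs-1 and Control-3, HMOX1 had a log2 change of 0.72 (adjusted p = 0.0896 by edgeR). Per kb of transcript, its level was 17.7 ± 8.10 CPM (SD, n = 3) in control samples and 40.9 ± 9.44 CPM (SD, n = 3) in CLs samples, beside 37.5 ± 8.16 and 39.4 ± 6.13 CPM for HMOX2. The same library, Control-3, was lowest in both ferritin chains, in HMOX1 and in HMOX2.

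**Figure D4:**
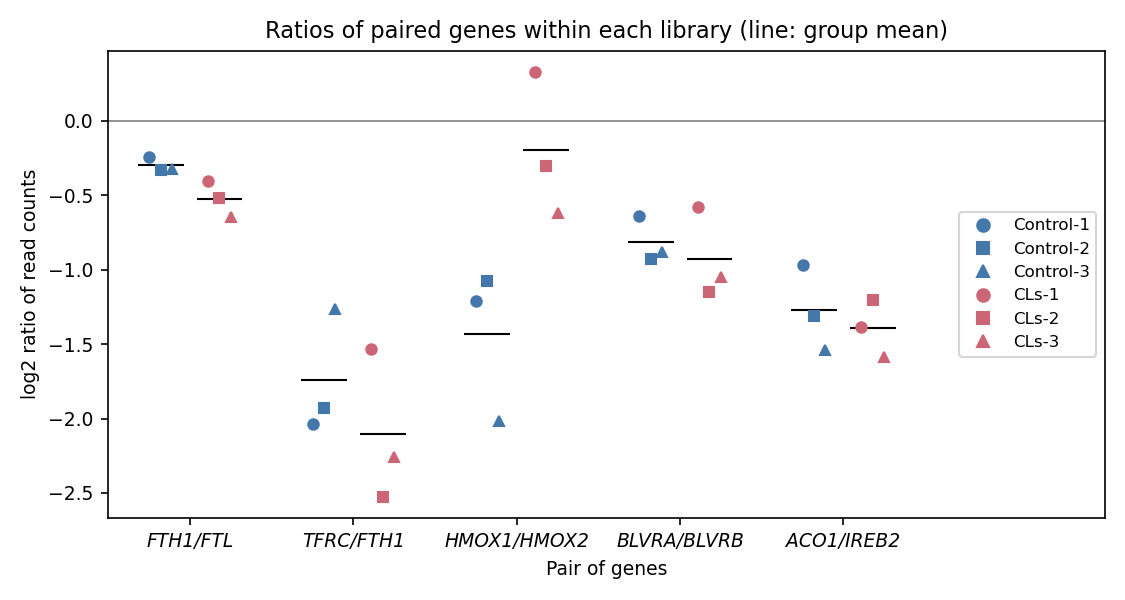
Log2 ratio of the read counts of 5 pairs of genes in each library, with a line at the group mean (3 samples each). The groups do not overlap for FTH1/FTL and HMOX1/HMOX2, with differences of -0.23 and 1.24, and overlap for the other 3 pairs.

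Of the biliverdin reductases, BLVRA was at 47.2, 48.4 and 53.3 CPM in Control-1 to Control-3 and at 48.4, 59.4 and 55.9 CPM in CLs-1 to CLs-3. CLs-2 and CLs-3 were above all controls and CLs-1 was among them. The log2 change was 0.14 (SE 0.14, 95% interval from -0.16 to 0.44, adjusted p = 0.998), with 0.22 without CLs-1 and 0.071 without CLs-2. BLVRB, which also works as a flavin reductase, was at 73.5, 92.3 and 97.9 CPM in the controls and at 72.3, 131.6 and 115.7 CPM in CLs-1 to CLs-3. CLs-1 was the lowest of all 6 libraries and CLs-2 the highest. Its log2 change was 0.28 (SE 0.21, 95% interval from -0.18 to 0.73, adjusted p = 0.978), which was 0.49 without CLs-1, 0.097 without CLs-2 and 0.16 without Control-1. Without both CLs-1 and Control-3 it was 0.58 (adjusted p = 0.105). The log2 ratio of BLVRA to BLVRB differed by -0.11 between the groups, which overlapped (exact two-sided permutation p = 0.6, 0.6 adjusted).

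Levels were compared between genes per kb of the principal transcript, on the CPM scale and in control samples. FTL was highest at 3356 ± 848.1 CPM per kb (SD, n = 3), followed by FTH1 at 1953 ± 500.5, with pseudogene reads left out. TFRC had 137.0 ± 8.81 CPM per kb, BLVRB 100.7 ± 14.7, BLVRA 42.7 ± 2.77 and HMOX2 37.5 ± 8.16. IREB2 was at 17.1 ± 2.51 and SLC11A2 at 16.7 ± 1.87, ACO1 was lowest of those detected at 5.96 ± 0.288, and SLC40A1 was at 0. The ranges of the 3 control samples overlapped between BLVRA and HMOX2 and between IREB2 and SLC11A2, and the other neighbours in this order did not overlap. In CLs samples the ranges of TFRC and BLVRB overlapped as well.

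The genes whose log2 CPM followed FTL and TFRC most closely over the 6 libraries were taken as a description, with no test, since the points are 6 libraries that share their scaling. They were picked as the closest among 15047 genes, so a high correlation follows in part from the choice. For FTL they were PRDX1 (peroxiredoxin 1), COPS7A and FTH1P2, with Pearson's r between 0.985 and 0.99, and their log2 fold changes were 0.38, 0.20 and 0.42 against 0.60 for FTL. For TFRC they were RTN3P1, EPM2AIP1 and IL4R, with r between 0.989 and 0.997.

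The other genes of iron and heme handling were taken from lists of 89 genes, of which 73 were tested and none passed in edgeR's quasi-likelihood test. Their median log2 fold change was 0.06, with 47 above 0 and 26 below, beside 7832 above and 7215 below over all tested genes. At an unadjusted p under 0.05 there were 6 of the 73, beside 5.81% of all tested genes, and groups did not overlap in 6 of the 73, beside 11.5%. DESeq2's Wald test called 1 of the 73, HMOX1, beside 107 of all 15047 tested genes.

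**Figure D5:**
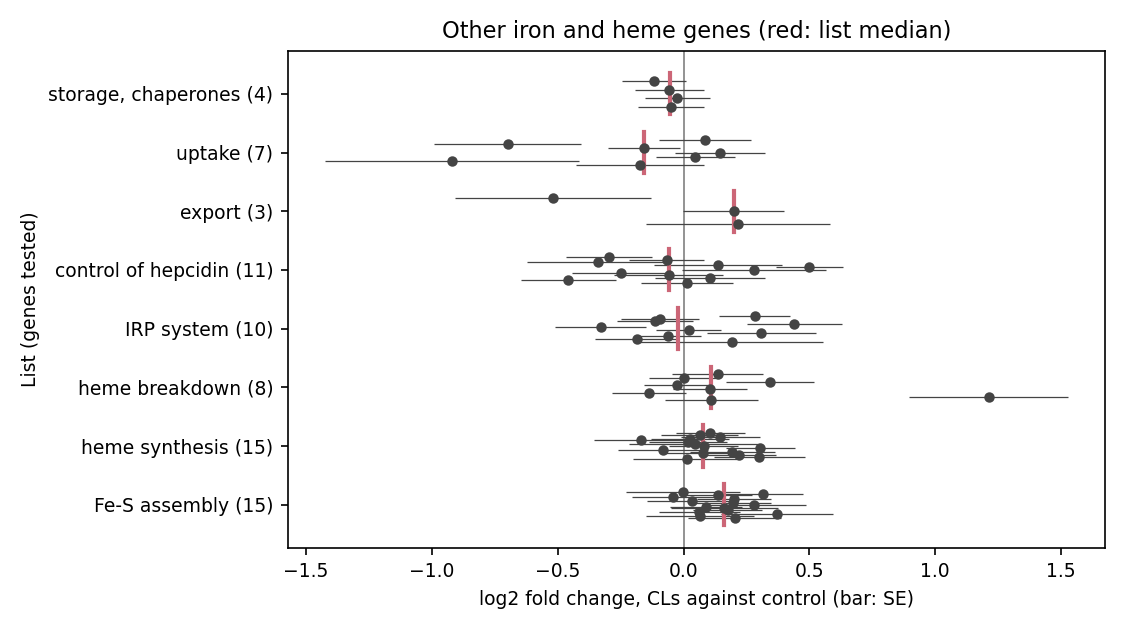
Log2 fold change (points, bars of 1 standard error) of the 73 tested genes of iron and heme handling by list, with the number tested in brackets and a red line at the list median. HMOX1 stands to the right at 1.21, and the list medians lie between -0.16 and 0.20.

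Among the genes that set hepcidin, 11 of 13 were tested, with a median of -0.06. HFE, a partner of the transferrin receptor that is mutated in hemochromatosis, did not pass but had separate groups. It was at 28.3, 30.1 and 31.8 CPM in Control-1 to Control-3 and at 42.4, 42.2 and 43.0 CPM in CLs-1 to CLs-3. The gap between the groups was wider than the range within either. The log2 fold change of HFE was 0.50 (SE 0.13, adjusted p = 0.311), and it lay between 0.46 and 0.54 in all alternatives run. BMP2, a ligand that induces hepcidin in liver, had a log2 change of -0.46 (SE 0.19, adjusted p = 0.775). HAMP itself, the gene of hepcidin, had 1 count in CLs-1 and 0 elsewhere.

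Of 12 genes of iron uptake 7 were tested, with a median of -0.16. STEAP4, a metalloreductase, was at 75.9, 91.5 and 177.0 CPM in the controls and 61.0, 57.4 and 93.9 CPM in CLs-1 to CLs-3. Control-3 was the highest of all, and the log2 fold change of -0.70 (SE 0.29, adjusted p = 0.788) was -0.24 without it. LRP2, a large endocytic receptor, had 8 to 45 counts per library and a log2 fold change of -0.92 (SE 0.51, adjusted p = 0.918), which was -0.32 without Control-3. In the export list 3 genes were tested, among them the heme exporter ABCG2 at 0.22 (SE 0.37, adjusted p = 0.998 by edgeR). FLVCR2, which is in this list but is not an established exporter, was at -0.52 (SE 0.39, adjusted p = 0.978 by edgeR). Both moved with single samples, ABCG2 to 0.81 without Control-3 and FLVCR2 to -0.19 without Control-2.

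The 4 tested genes of iron chaperoning and ferritin turnover had log2 fold changes between -0.12 and -0.02. PCBP2 and PCBP1, which deliver iron to ferritin, were at -0.12 (SE 0.13) and -0.06 (SE 0.14). PCBP2 was at 638.9 to 671.6 CPM in the controls and 585.4 to 628.9 CPM in the CLs-treated samples, without overlap. In the list of the iron regulatory protein system, 10 of 10 were tested, with a median of -0.02. FAM96A, a factor that helps mature ACO1, had a log2 change of 0.44 (SE 0.19, adjusted p = 0.808), and EPAS1, a hypoxia factor with an IRE of its own, -0.33 (SE 0.18, adjusted p = 0.916).

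Of the enzymes and carriers of heme synthesis 15 of 16 were tested, and 13 of these had a log2 fold change above 0, with a median of 0.08. Over all tested genes, 7832 of 15047 were above 0. Whether this list or that of iron-sulfur cluster assembly moved as a set was not tested. FECH, which inserts iron into the porphyrin ring, was at 64.3, 64.9 and 63.3 CPM in Control-1 to Control-3. It was at 70.3, 76.7 and 90.9 CPM in CLs-1 to CLs-3, all above the controls. Its log2 change was 0.30 (SE 0.14, adjusted p = 0.847), like that of the porphyrin carrier ABCB6 (0.30, SE 0.18, adjusted p = 0.939). The erythroid ALAS2 had 1 count in CLs-1 and 0 elsewhere. POR, the reductase that feeds electrons to the heme oxygenases, had a log2 change of 0.34 (SE 0.17, adjusted p = 0.89). Of the 15 genes of iron-sulfur cluster assembly all were tested, 13 were above 0 and the median was 0.16, led by FDXR (ferredoxin reductase) at 0.37 (SE 0.22, adjusted p = 0.939) and NFU1 at 0.32 (SE 0.16, adjusted p = 0.88). Leaving out 1 sample moved several of these values, ABCB6 to 0.12, FAM96A to 0.28 and FDXR to 0.59 without Control-3, POR to 0.19 without CLs-2, and FECH to 0.20 and EPAS1 to -0.19 without CLs-3.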

How the data were processed

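RNA-seq was analysed in 3 control and 3 CLs-treated samples, grouped by their titles. The authors mapped filtered single-end reads with MapSplice 2.1.8 and deposited counts, whole numbers of reads per gene symbol, without normalization. The submitters' processing notes name HTSeq 0.6.1 and the builds hg19 and GRCh37. The gene annotation, the strand setting and how multiply matching reads were handled are not given in the sources used here. All 6 columns were used, and the file has no coordinates.

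Low genes were removed with filterByExpr, leaving 15047, and libraries were scaled by TMM. The groups were then compared by the quasi-likelihood F test of edgeR 4.0.16 (R 4.3.3), with no covariate and with Benjamini-Hochberg adjustment over the 15047 genes. Standard errors were derived from the F statistic, and 95% intervals from the t quantile of the fit. CPM are counts per 1e+06 of the TMM-scaled total. Floors of 3 counts cover counting error only. Ratios of counts were tested with an exact permutation test. The script was tested on simulated data. Replicates of a group differed by more than sampling noise (chi-square per degree of freedom of at least 8.20). IREs and transcript lengths were taken from GENCODE 29.

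Alternatives were DESeq2 1.42.0, RLE factors, library size only, other filters, no fold criterion, a replicate block, and omission of single samples. The joint removal of CLs-1 and Control-3, and the addition of pseudogene reads in the fit, were chosen after seeing the data. Named are all 10 members, HMOX1, ferritin pseudogenes with at least 10 counts by number and example, the genes called or otherwise the 2 largest log2 fold changes of each list, liver iron genes near 0, and the 3 genes most like each of FTH1, FTL and TFRC, of which those for FTH1 are not reported here. The members and lists were chosen with earlier results of these data known. No batch is named in the labels.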

Additional observations from a re-analysis of the deposited data

How the results depend on the processing

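The number of these 10 genes called was 0 in each direction under every alternative run but the joint removal of CLs-1 and Control-3, which called 1 higher (FTL), and leaving out single samples gave 0 to 0. Of the other iron and heme genes, 1 higher gene, HMOX1, was called by DESeq2's Wald test, with every gene with a read tested and with the replicate block (log2 fold change 1.30, adjusted p = 0.00468 by edgeR), and 0 otherwise. Over all genes, 16 higher and 91 lower were called by DESeq2, 58 and 113 with every gene with a read tested, 12 and 56 with the replicate block, and 21 and 81 without CLs-1 and Control-3, against 2 and 11. With library size only, 6 lower were called. Leaving out single samples gave 1 to 3 higher and 2 to 6 lower.

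The sign changed for values near 0. TFRC ranged from -0.084 to 0.083 over the single samples left out and was -0.079 without CLs-1 and Control-3. SLC11A2 ranged from -0.0057 to 0.15, IREB2 from -0.18 to 0.066, HMOX2 from -0.092 to 0.21, PCBP1 from -0.12 to 0.032 (0.015 without CLs-1 and Control-3) and ABCG2 from -0.064 to 0.81. The difference in the BLVRA to BLVRB ratio ranged from -0.28 to 0.0012 and that of ACO1 to IREB2 from -0.25 to 0.032. The causes were not tested. The deviations of samples numbered 1, 2 and 3 correlated at 0.111, 0.0987 and 0.305, and those with different numbers at -0.201 to 0.0783. Every sample correlated best with its own number, a hint from the data, but the labels name no shared origin and 1 pair was under 0.1, so the numbers were not taken as pairs. With the replicate block, FTL had a log2 fold change of 0.59 (adjusted p = 0.527), and no member was called. At 11418527 to 13998946 counts per library, SLC40A1 was under the floor of 3 counts, and whether greater depth would detect it was not tested.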

Other observations

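A few further genes of iron handling were read almost only in CLs-1, and were picked after their values were seen. STEAP2, a metalloreductase of iron uptake, had 11 counts there and at most 1 elsewhere, LCN2, which binds iron carried by siderophores, had 16 counts and at most 4 elsewhere, and CP, the plasma ferroxidase, had 15 counts and 0 elsewhere. COL1A2, a collagen of fibroblasts, was read 1044 times in CLs-1 and 0 to 2 times elsewhere, while the related COL3A1 had 7456 to 11358 counts in all 6 libraries. None of these, apart from COL3A1, had enough reads in enough libraries to be tested.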
